A study of Arabidopsis thaliana with 4 samples.

Results

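Aquaporins are channel proteins that let water, and in some cases small uncharged solutes, pass through membranes. The plant family has plasma membrane intrinsic proteins (PIP), tonoplast intrinsic proteins (TIP) of the vacuolar membrane, NOD26-like intrinsic proteins (NIP), several of which carry boric acid or other metalloids, and small basic intrinsic proteins (SIP) of the endoplasmic reticulum. The stem of a dark-grown seedling lengthens mainly because its cells take up water into a growing vacuole, and TIP and PIP channels are abundant in such tissue. All 35 annotated aquaporin genes of *Arabidopsis thaliana* were taken by locus, 13 PIP, 10 TIP, 9 NIP and 3 SIP genes, out of 32635 rows with a gene name. Each had a row of its own, and none lay in a row merged with another locus. Gene names are written here with a hyphen between class and member, so that TIP3-1 is AT1G73190.

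The plants were *daz3 tree1* double mutants in the Columbia background, which carry mutations in 2 zinc-finger genes, one of them studied for its role in ethylene signalling. Seedlings were kept in the dark for 3 days. For 4 hours they were then kept in hydrocarbon-free air, or in such air to which 10 ppm of the gaseous hormone ethylene had been added. RNA of whole seedlings was sequenced in 2 libraries per group. Both groups carry the mutations and no wild type was analysed here, so every difference describes the mutant. The labels do not say whether the libraries came from separate cultures, so the spread behind the p-values may be technical. Values are the authors' FPKM, fragments per kilobase of transcript scaled to library size, with 1 value per group and no value per library. No SD can be given, and sequencing depth is unknown.

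A gene was called when the p of the authors' deposited table, adjusted by Benjamini-Hochberg over 18696 tested rows and named the adjusted p from here on, was below 0.05. By this rule 2.17% of tested rows were called higher in the ethylene group and 4.18% lower, and their median log2 fold change was -0.02. The mutated genes were at or near 0, with TREE1 listed at 0 in air and 0.327 FPKM with ethylene, and DAZ3 listed at 0 in both groups. The tissue label was checked against markers. The root genes PYK10 and CASP1 and the shoot genes RBCS1A and PORA were abundant in both groups, while the root genes COBL9, EXPA7 and WOX5 were below 0.5 FPKM in both. Of 5 tested shoot markers, PORA was called lower with ethylene and the other 4 had higher ethylene values without a call, with a median log2 fold change of 0.10 over the 5. Of 4 tested root markers 0 were called. In whole seedlings, a change in the share of cells of 1 type and a change in RNA per cell cannot be told apart.

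Of the 35 aquaporin genes, 28 were tested, 6 were called higher in the ethylene group and 0 were called lower. The 6 were the tonoplast genes TIP1-1, TIP1-2, TIP2-1, TIP2-2 and TIP3-1 and the plasma membrane gene PIP2-4. At an unadjusted p under 0.05 the count was 10 higher and 0 lower, against 18.8% of all tested rows in either direction. The called share of 21.4% higher stands against 2.17% of all rows. Ethylene values exceeded air values in 24 of the 28, against 48.1% of all tested rows, and the median log2 fold change was 0.28. The other 7 genes had a deposited p of 1 and were not tested.

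Much of this concerns abundant genes, and abundant genes as a whole were shifted upwards. Among all 229 tested rows with a mean of 500 FPKM or more, 71.6% had a higher ethylene value and 16.2% were called higher, with a median log2 fold change of 0.17. The 11 aquaporin genes at that level all had higher ethylene values, 4 were called, and their median was 0.36. The 12 reference genes, a set of housekeeping genes, had a median of 0.26 and 1 call, EF1A, which was higher. When all log2 values were lowered by that 0.26, the median of tested rows moved to -0.28. On that scale 2 aquaporin genes remained called higher (PIP2-4 and TIP3-1), and PIP1-1 was called lower. For PIP2-4 and TIP3-1 the rescaled test could use a smaller standard error than their own p implies, which can favour a call. PIP1-1 was tested with its own. Of the members at 5 FPKM or more, 4 PIP genes had positive and 9 negative values on that scale, while 7 TIP genes had positive values and 1 a negative value. Changes below are on the deposited scale.

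**Figure D1:**
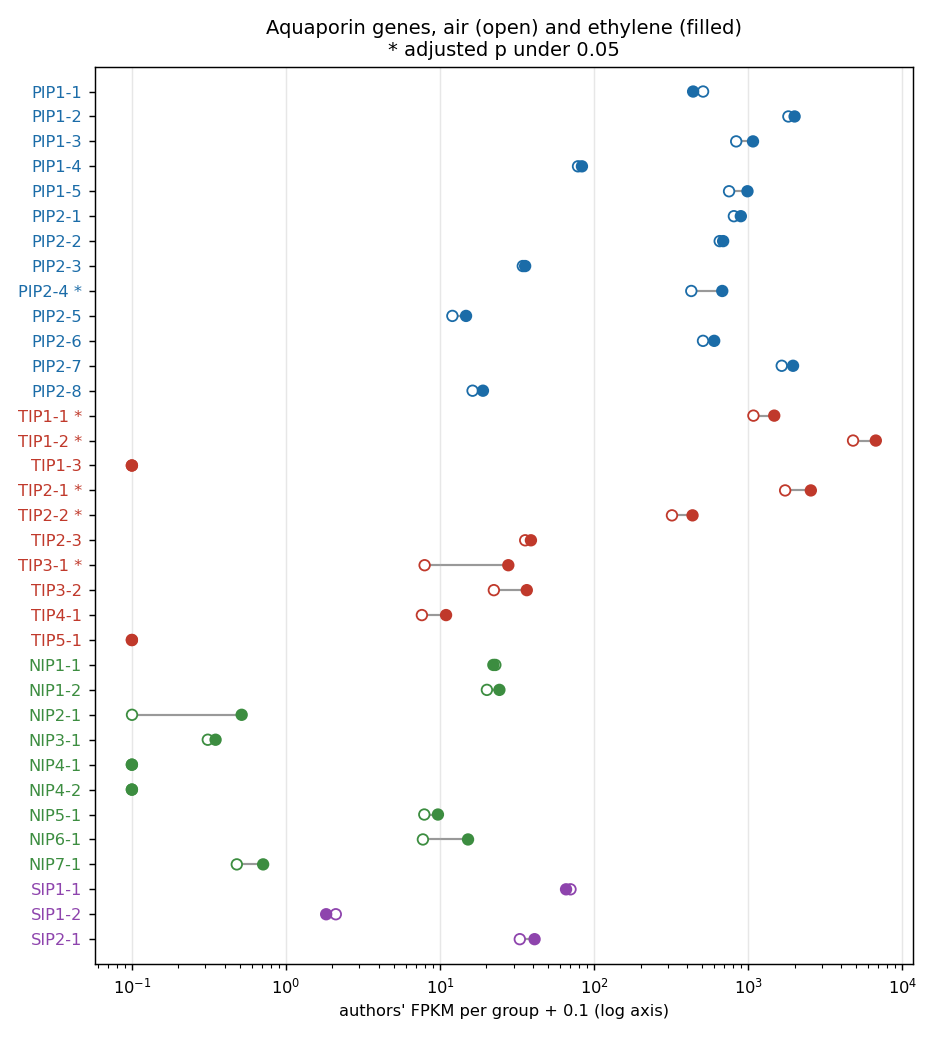
Level of each of the 35 aquaporin genes on a log axis of the authors' FPKM plus 0.1, with open points for air and filled points for ethylene and with colours for the PIP, TIP, NIP and SIP classes. TIP1-2 stands highest, at 4792 and 6734 FPKM, and the 6 called genes, marked by an asterisk, all have the filled point to the right.

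Summed over the family, FPKM was 16274 in air and 20961 with ethylene, 1.29-fold higher. TIP genes made 70.5% of that rise and PIP genes 29.1%. The TIP sum was 1.41-fold and the PIP sum 1.17-fold higher, against 1.25-fold for the sum of the reference genes. The TIP share of the family sum was 49.2% in air and 53.9% with ethylene, and the PIP share was 49.8% and 45.2%. NIP and SIP genes supplied 0.361% and 0.645% of the sum in air. These sums have no replicate error, and no test of the shares was possible.

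The water pore of an aquaporin is lined by a pair of conserved asparagine-proline-alanine boxes. The codons of that box are shown in capitals within the coding sequence of called genes and of NIP6-1, which has only 1 intact box, because this box defines the family and marks its divergent members. The first box of TIP1-2, TIP2-1, TIP3-1 and NIP6-1, read from the TAIR10.1 genome by the RefSeq annotation, was as follows.
TIP1-2 (chr3:9723428.0-9723460.0, minus strand): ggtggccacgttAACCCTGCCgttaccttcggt
TIP2-1 (AT3G16240, chr3:5505871.0-5505903.0, plus strand): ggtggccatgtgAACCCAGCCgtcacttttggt
TIP3-1 (chr1:27522510.0-27522542.0, plus strand): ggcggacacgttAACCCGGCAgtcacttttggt
NIP6-1 (chr1:30351485.0-30351517.0, minus strand): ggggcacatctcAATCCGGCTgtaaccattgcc
The second box of PIP2-4, TIP1-2 and TIP3-1 was as follows.
PIP2-4 (AT5G60660, chr5:24375942.0-24375974.0, minus strand): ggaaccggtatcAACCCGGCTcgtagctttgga
TIP1-2 (chr3:9722914.0-9722946.0, minus strand): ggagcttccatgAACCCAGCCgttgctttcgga
TIP3-1 (chr1:27522971.0-27523003.0, plus strand): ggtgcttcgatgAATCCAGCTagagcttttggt
All 13 PIP and all 10 TIP genes held 2 intact boxes in the longest annotated coding sequence. All 3 SIP genes held 1. Of the NIP genes 4 held 2, another 4 held 1 (NIP1-1, NIP1-2, NIP6-1 and NIP7-1), and NIP5-1 held 0. The called genes thus hold both boxes, as do the uncalled PIP and TIP genes.

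Among the tonoplast genes, the abundant members of the TIP1 and TIP2 groups rose together. Of 8 tested TIP genes, 5 were called higher and 0 lower, all 8 had higher ethylene values, and the median log2 fold change was 0.51. Of all tested rows, 2.17% were called higher and 48.1% had a higher ethylene value. At a mean of 500 FPKM or more these shares were 16.2% and 71.6%. TIP1-2 (AT3G26520, chr3:9722443-9723904 in TAIR10.1, minus strand), a water channel of the vacuolar membrane, was the most abundant aquaporin. Its level was 4792 FPKM in air, against 6734 FPKM after ethylene, ranks 8 and 6 among single-locus rows. Its log2 fold change was 0.49, and the 95% interval that the p of the authors' deposited table implies ran from 0.21 to 0.77, with an adjusted p of 0.0156. This gene alone made up 29.4% of the family sum in air and 32.1% with ethylene. TIP1-1 (AT2G36830, chr2:15445294-15446621, plus strand), its closest relative and a marker of expanding cells, rose from 1081 to 1476 FPKM. Its log2 fold change was 0.45, with an interval from 0.18 to 0.72 and an adjusted p of 0.0253 from the authors' deposited table. The coding sequences of this pair are 81.5% identical, and both moved by nearly the same factor, 1.36-fold for TIP1-1 and 1.41-fold for TIP1-2.

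TIP2-1 (AT3G16240, chr3:5505360-5507050, plus strand), which carries ammonia as well as water, rose from 1737 to 2550 FPKM. Its log2 fold change was 0.55 (0.27 to 0.83), the largest among aquaporins above 1000 FPKM, with an adjusted p of 0.00404 from the authors' deposited table. It overlaps a protein-coding gene on the other strand by 120 bases, which had 29.0 and 18.8 FPKM, and an annotated non-coding RNA there by 445 bases. TIP2-2 (AT4G17340, chr4:9698940-9700472, plus strand) rose from 319.9 to 435.0 FPKM, with a log2 fold change of 0.44 (0.16 to 0.73) and an adjusted p of 0.0397 from the authors' deposited table. TIP2-3, the member closest to TIP2-2 at 81.5% coding identity, stood at 35.6 FPKM in air and at 38.8 FPKM after ethylene and was not called, with a log2 fold change of 0.12 and an interval from -0.28 to 0.53. That interval overlaps the one of TIP2-2, and the difference between them was not tested. The calls of TIP1-1, TIP1-2 and TIP2-2 were lost after subtraction of a trend with GC content, where their log2 fold changes were 0.24, 0.39 and 0.35, and on the reference-gene scale none of the 4 was called, at 0.19 (TIP1-1), 0.23 (TIP1-2), 0.30 (TIP2-1) and 0.18 (TIP2-2).

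TIP4-1, which is known from roots, stood at 7.52 FPKM in air and at 10.8 FPKM after ethylene and was not called (log2 fold change 0.53, -0.13 to 1.18). TIP1-3 and TIP5-1, known from pollen, were listed at 0 with either gas, and a listed 0 may also stand for an estimate that failed. The vacuole is acidified by proton pumps that sit in the same membrane as TIP proteins, and these were compared as neighbours in function. Of 10 tested vacuolar pump genes 0 were called, with a median log2 fold change of 0.11. Of all tested rows 2.17% were called higher and 4.18% lower, so a count of 0 among 10 genes is near those shares. The pyrophosphatase AVP1, the most abundant of them, had 644.6 and 816.7 FPKM (log2 fold change 0.34, 0.07 to 0.61), with an adjusted p of 0.123 from the authors' deposited table. VHA-E1, a subunit of the vacuolar ATPase, had a log2 fold change of -0.14, VHA-A, its catalytic subunit, 0.16 and DET3, its subunit C, 0.12.

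**Figure D2:**
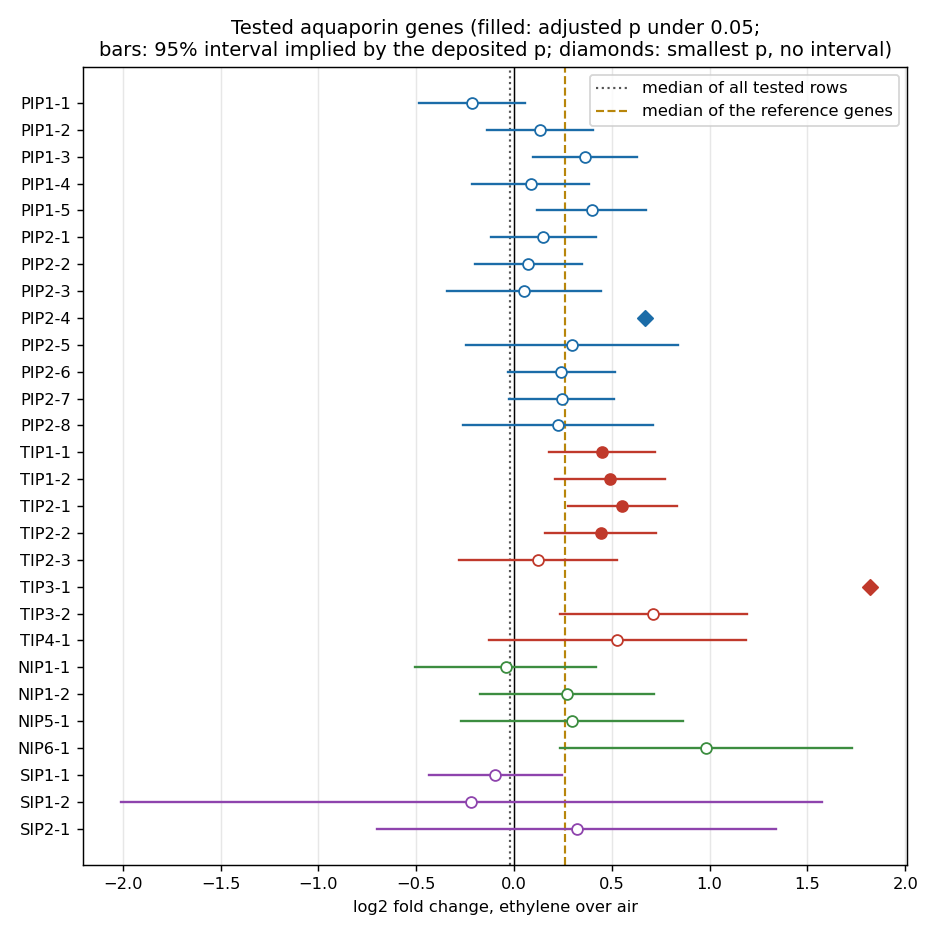
Log2 fold change, ethylene over air, of the 28 tested aquaporin genes, with 95% intervals derived from the deposited p-values and with filled points for called genes. Diamonds mark PIP2-4 and TIP3-1, at the smallest deposited p, which have no interval. The dotted line is the median of all tested rows, -0.02, and the dashed line that of the reference genes, 0.26.

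The seed tonoplast genes TIP3-1 and TIP3-2 stood at low levels and had the largest TIP log2 fold changes on the deposited scale. Their proteins sit in the protein storage vacuoles of seeds, and their transcripts are known to decline after germination. TIP3-1 (AT1G73190, chr1:27521944-27523332, plus strand) rose 3.53-fold, from 7.84 to 27.6 FPKM. Its log2 fold change was 1.82, with an adjusted p of 0.00227 from the smallest p in the authors' deposited table, 5e-05. It overlaps a gene on the other strand by 290 bases, and that gene stood at 10.09 and 8.16 FPKM. TIP3-2 (AT1G17810, chr1:6130025-6131627, plus strand) stood at 22.2 FPKM in air and at 36.5 FPKM after ethylene. Its log2 fold change was 0.71 (0.24 to 1.19), and its adjusted p of 0.0523 from the authors' deposited table lay just outside the threshold. It passed when rows below 5 FPKM were left out (adjusted p of 0.0418 from the authors' deposited table) and when log2 values were centred on the median of tested rows (0.0431). With the GC trend subtracted its log2 fold change was 0.46, below that of TIP4-1 at 0.50, with an adjusted p of 0.303 from the rescaled test. On the reference-gene scale it was 0.45, with an adjusted p of 0.208 from the same kind of test. It overlaps a protein-coding gene on the other strand by 91 bases, which had 3.61 and 3.32 FPKM, and an annotated non-coding RNA by 564 bases. TIP3-1 was the lower of the pair in air and the pair came closer with ethylene. TIP3-1 was called under all 10 alternatives in scaling, threshold and filter, with log2 fold changes from 1.56 to 1.84. At the smallest p, the standard error that the p implies is only an upper limit. Rescaled tests of TIP3-1 therefore used the smaller of it and the median of rows of like level, which can favour a call.

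Other seed genes moved with them. Of 6 seed markers, 3 were called higher and 0 lower, against 2.17% and 4.18% of all tested rows. Their summed levels were 110.8 FPKM in air and 186.0 FPKM with ethylene, and their median log2 fold change was 1.45. The 12S storage protein gene CRA1 rose from 11.8 to 43.6 FPKM, and the related CRC from 1.02 to 5.04 FPKM. The oil body gene OLEO2 rose from 34.1 to 73.5 FPKM. The late embryogenesis genes EM1 and EM6 were not called, with log2 fold changes of -0.59 and 0.27, and OLEO1 was not called at 1.79. No marker was at 0. The part of seed tissue or seed RNA in the TIP3-1 result was not tested.

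The 300 bases around the annotated start of both seed genes, 250 before it and 50 after, are shown because the pair moved in the same direction and shares a seed motif there. Capitals mark CATGCA, the core of the RY element known from seed gene promoters, and CACGTG, the G-box, on either strand. The search for CATGCA was chosen after the calls were known.
TIP3-1 (chr1:27521694-27521993, plus strand): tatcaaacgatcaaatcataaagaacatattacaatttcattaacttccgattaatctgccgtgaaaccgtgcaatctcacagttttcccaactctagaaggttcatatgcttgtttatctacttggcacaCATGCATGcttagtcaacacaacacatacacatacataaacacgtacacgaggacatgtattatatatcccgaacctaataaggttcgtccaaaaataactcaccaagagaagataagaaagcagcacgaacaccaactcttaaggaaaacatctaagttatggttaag
TIP3-2 (chr1:6129775-6130074, plus strand): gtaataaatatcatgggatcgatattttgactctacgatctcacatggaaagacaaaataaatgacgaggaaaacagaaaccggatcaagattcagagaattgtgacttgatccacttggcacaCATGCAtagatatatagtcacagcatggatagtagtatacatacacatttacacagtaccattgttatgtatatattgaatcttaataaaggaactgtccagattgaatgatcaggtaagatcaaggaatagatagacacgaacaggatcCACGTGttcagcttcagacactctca
CATGCA occurred on 1 strand or the other in both windows, at overlapping places in TIP3-1, and in 9.69% of 27561 windows of protein-coding genes. The windows share an unbroken run of 17 bases, acttggcacacatgcat, which starts 129 bases before the start of TIP3-1 and 136 before that of TIP3-2. This run was picked as the longest that both windows share, so these 2 matches were fixed by the choice. No other of the 27561 windows held it on either strand. For a run of this length, that absence says little about the pair. The G-box of TIP3-2 lies after the annotated start and was its only match in the family, against 7.65% of all windows. Over all 35 aquaporin windows, 10 held CATGCA, including those of the called genes TIP1-2, TIP3-1 and PIP2-4. The rest were those of the uncalled genes PIP1-1, PIP1-5, PIP2-7, PIP2-8, TIP3-2, NIP1-1 and NIP6-1. The windows of the called genes TIP1-1, TIP2-1 and TIP2-2 did not hold it. The GCC-box AGCCGCC, bound by ethylene response factors, occurred in 0 of the 35 and in 0.798% of all windows, and the clock-related evening element AAAATATCT in 0 of 35 and in 2.81%. These are matches of letters, not shown to be bound.

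In the plasma membrane class, PIP2-4 rose and the other 12 genes were not called. That is 7.69% called higher, against 2.17% of all tested rows and 16.2% of those at a mean of 500 FPKM or more. PIP2-4 (AT5G60660, chr5:24375368-24377206, minus strand), a channel known mainly from roots that passes hydrogen peroxide as well as water, went from 427.2 to 678.5 FPKM. The log2 fold change was 0.67, 1.59-fold, with an adjusted p of 0.00227 at the smallest p of the authors' deposited table. This gene moved from rank 266 to rank 135 among single-locus rows, and its level, below that of PIP2-6 in air, lay above it after ethylene. It was called under all 10 alternatives, with log2 fold changes from 0.41 to 0.70 and adjusted p-values up to 0.0303, the highest being from the test rescaled to the reference genes. The rescaled tests of PIP2-4, like those of TIP3-1, used the smaller of its implied standard error and the median of rows of like level. That choice can favour a call. The implied standard error of PIP2-4 itself was 0.165, beside a log2 fold change of 0.41 on the reference-gene scale. The call on that scale may rest on the smaller value. Whether the rescaled calls hold with its own implied standard error was not tested. The tested root markers had log2 fold changes from -0.27 to 0.17 and summed levels of 4293 and 4075 FPKM, and their part in this result was not tested. The window around its start, shown because this was the called PIP gene, held 1 CATGCA.
PIP2-4 (AT5G60660, chr5:24377157-24377456, minus strand): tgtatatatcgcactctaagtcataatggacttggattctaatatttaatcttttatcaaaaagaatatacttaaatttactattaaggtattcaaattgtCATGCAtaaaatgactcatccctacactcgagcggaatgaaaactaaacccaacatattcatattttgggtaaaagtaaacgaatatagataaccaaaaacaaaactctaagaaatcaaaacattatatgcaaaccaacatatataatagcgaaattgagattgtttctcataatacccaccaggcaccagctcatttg

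The remaining PIP2 genes were not called, though each had a higher ethylene value. PIP2-7, the most abundant of the class 2 genes, stood at 1651 FPKM in air and at 1954 FPKM after ethylene (log2 fold change 0.24, -0.02 to 0.51). PIP2-1, a main water channel of roots, had 807.3 and 895.5 FPKM (0.15, -0.12 to 0.42). PIP2-6 had 508.8 and 601.5 FPKM (0.24, -0.03 to 0.52). All 8 PIP2 genes had higher ethylene values, and the 7 that were not called had log2 fold changes from 0.05 to 0.30. PIP2-5 and PIP2-8 were low, at 11.9 and 16.2 FPKM in air, with intervals of -0.24 to 0.84 and -0.26 to 0.71.

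PIP2-2 and PIP2-3 lie 2612 bases apart on chromosome 2, on opposite strands, and are the most alike pair of the family. Their coding sequences are 94.8% identical, with 45 of 858 bases different, and they share 1 unbroken run of 242 bases. Reads from that run fit both genes, so the split of reads between them is uncertain. PIP2-2 had 653.3 and 687.6 FPKM and PIP2-3 had 34.3 and 35.6 FPKM, in air and with ethylene. The last 120 coding bases are shown, stop codon included, with the 10 bases that differ in capitals, since reads over such places are what tells the genes apart.
PIP2-2 (chr2:15613624-15613743, minus strand): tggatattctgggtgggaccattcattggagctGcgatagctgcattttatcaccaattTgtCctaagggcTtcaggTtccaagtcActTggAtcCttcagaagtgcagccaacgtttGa
PIP2-3 (chr2:15618818-15618937, plus strand): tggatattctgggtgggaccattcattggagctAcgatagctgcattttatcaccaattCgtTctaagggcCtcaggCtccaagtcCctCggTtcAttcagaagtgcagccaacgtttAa
Neither gene was called, and their log2 fold changes were 0.07 (-0.20 to 0.35) and 0.05 (-0.34 to 0.44). With the other near pairs the longest shared run of coding bases was 74, between NIP4-1 and NIP4-2, and 41 between PIP1-1 and PIP1-2.

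PIP1 proteins reach the plasma membrane together with PIP2 partners. Of the 5 PIP1 genes 0 were called, against 2.17% of all tested rows called higher and 4.18% lower. They had both the only negative value among the PIP genes and some of the largest positive ones. PIP1-5 stood at 751.2 and 989.1 FPKM, in air and after ethylene, with a log2 fold change of 0.40 (0.12 to 0.68) and an adjusted p of 0.0699 from the authors' deposited table. PIP1-3 had 835.7 and 1074 FPKM (0.36, 0.10 to 0.63), with an adjusted p of 0.0879 from the authors' deposited table. Both intervals lie above 0 although neither gene passed after adjustment. PIP1-2, the most abundant PIP gene, had 1823 and 2000 FPKM (0.13, -0.14 to 0.40), and PIP1-4 had 78.5 and 83.2 FPKM (0.08, -0.21 to 0.38).

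PIP1-1 was the exception in direction among the abundant aquaporins. Its level was 509.3 FPKM in air and 439.0 FPKM after ethylene, a log2 fold change of -0.21 with an interval from -0.49 to 0.06. Scaled to the reference genes the value was -0.47 and was called lower, with an adjusted p of 0.00807 from a test recomputed with the implied standard error. PIP1-2, its closest relative at 87.6% coding identity, had the opposite sign on the deposited scale, and on the reference scale it was -0.12. The difference between both genes was not tested.

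**Figure D3:**
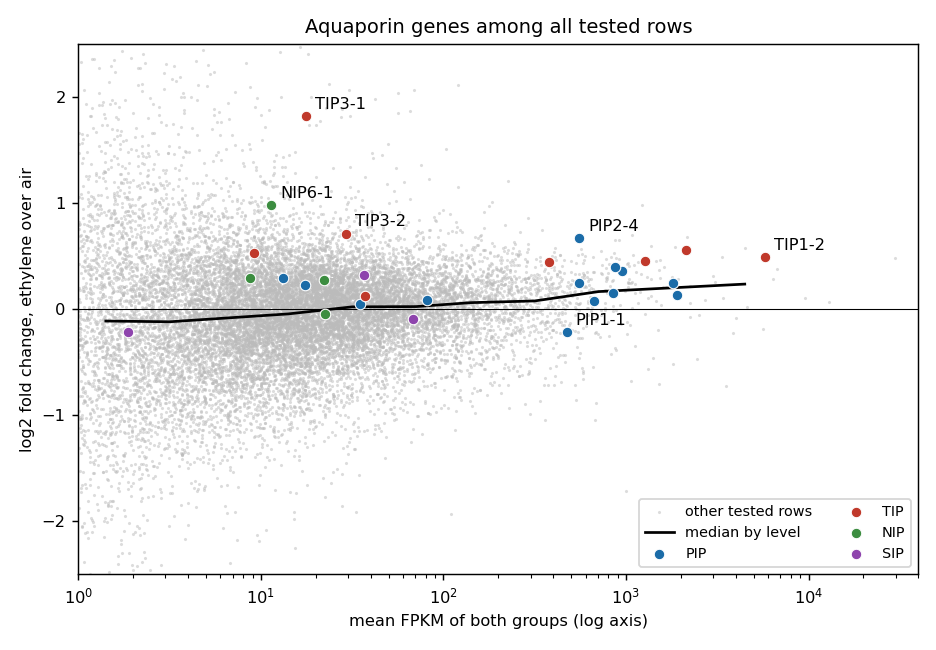
Log2 fold change, ethylene over air, against the mean FPKM of both groups on a log axis, with tested rows in grey, their median by level as a line and the aquaporin classes in colour. The median of rows at 500 FPKM or more is 0.17, and all 11 aquaporin genes at that level lie above 0. Rows beyond 2.5 in either direction or below 1 FPKM are not drawn.

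Genes whose proteins act on PIP channels, or on the proton gradient across the plasma membrane, were compared next. Of 7 tested genes of aquaporin regulation and trafficking, 1 was called higher and 1 lower, against 2.17% and 4.18% of all tested rows. TSPO, a membrane protein known to bind PIP2-7 and send it to degradation, rose from 34.3 to 58.6 FPKM (log2 fold change 0.77, 0.36 to 1.19), with an adjusted p of 0.00819 from the authors' deposited table. OST1, an abscisic acid kinase known to phosphorylate PIP2-1, fell from 48.7 to 33.3 FPKM (log2 fold change -0.55, -0.90 to -0.19), with an adjusted p of 0.0442 from the authors' deposited table. The syntaxin gene SYP121, which helps to bring PIP2 channels to the plasma membrane, had 42.3 and 52.1 FPKM and was not called. The kinase genes BAK1, QSK1 and SIRK1 and the syntaxin gene SYP61 had log2 fold changes from -0.05 to 0.34 and were not called either. Of 8 tested plasma membrane proton pump genes 0 were called, with the main pumps AHA2 and AHA1 at 0.22 and 0.23, AHA11 at -0.08 and AHA3 at -0.39.

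NIP genes were low throughout. Of 9 genes, 4 were tested and 0 were called, near the 2.17% of all tested rows called higher and 4.18% lower. The summed level of the 9 was 58.8 FPKM in air and 72.2 FPKM with ethylene. NIP6-1 (AT1G80760, chr1:30350539-30352208, minus strand), which carries boric acid to young growing tissue, had the largest value of the class. Its level was 7.64 FPKM in air and 15.1 FPKM after ethylene, a log2 fold change of 0.98 with a wide interval from 0.24 to 1.73. It did not pass after adjustment, with an adjusted p of 0.105 from the authors' deposited table. It was not called under any of 10 alternatives, with adjusted p-values from 0.0847 to 0.397. The highest came with the GC trend subtracted, where its log2 fold change was 0.62. It overlaps a gene on the other strand by 26 bases, and that gene had 26.4 and 12.6 FPKM. With the strand setting not given in the sources used here, reads from such overlaps cannot be told apart.

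NIP5-1, which takes up boric acid in roots, had 7.80 and 9.59 FPKM (log2 fold change 0.30, -0.27 to 0.86). NIP1-2, known for aluminium malate uptake, had 20.04 and 24.2 FPKM (0.27, -0.17 to 0.71), and NIP1-1, which can carry arsenite, had 22.8 and 22.1 FPKM (-0.04, -0.51 to 0.42). All 3 intervals include 0. The boron exporter genes BOR1 and BOR2, which act together with boric acid channels, had log2 fold changes of -0.14 and 0.37. Among these 2 tested genes 0 were called, near the 2.17% and 4.18% of all tested rows called higher and lower. NIP2-1, known from roots short of oxygen, was listed at 0.000174 and 0.416 FPKM, NIP3-1 at 0.211 and 0.249, and NIP7-1, known from anthers, at 0.380 and 0.611. The pollen genes NIP4-1 and NIP4-2 were listed at 0 in both groups, and none of these 5 genes was tested.

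The 3 SIP genes, all tested, showed no call, near the 2.17% of all tested rows called higher and 4.18% lower. SIP1-1 stood at 70.2 FPKM in air and at 65.6 FPKM after ethylene (log2 fold change -0.10, -0.44 to 0.24). SIP2-1 had 32.8 and 41.0 FPKM, with an interval from -0.70 to 1.34 that is wide for its level. SIP2-1 overlaps a protein-coding gene of the other strand by 147 bases, which had 349.5 and 286.6 FPKM, and a non-coding RNA by 203 bases. SIP1-2, the lowest tested aquaporin, had 2.01 and 1.72 FPKM and an interval from -2.01 to 1.57. It overlaps a protein-coding gene on the other strand by 444 bases, which had 1.25 and 0.353 FPKM, and a non-coding RNA by 209 bases.

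Across the 28 tested genes the log2 fold change had a Spearman correlation of 0.05 with the mean level, 0.43 with the GC content of the transcript and -0.25 with its length. These genes share their libraries and are not independent, so the values are descriptions. In level, 13 genes of the PIP1, PIP2, TIP1 and TIP2 groups had a mean above 100 FPKM and made 97.7% of the family sum in air.

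**Figure D4:**
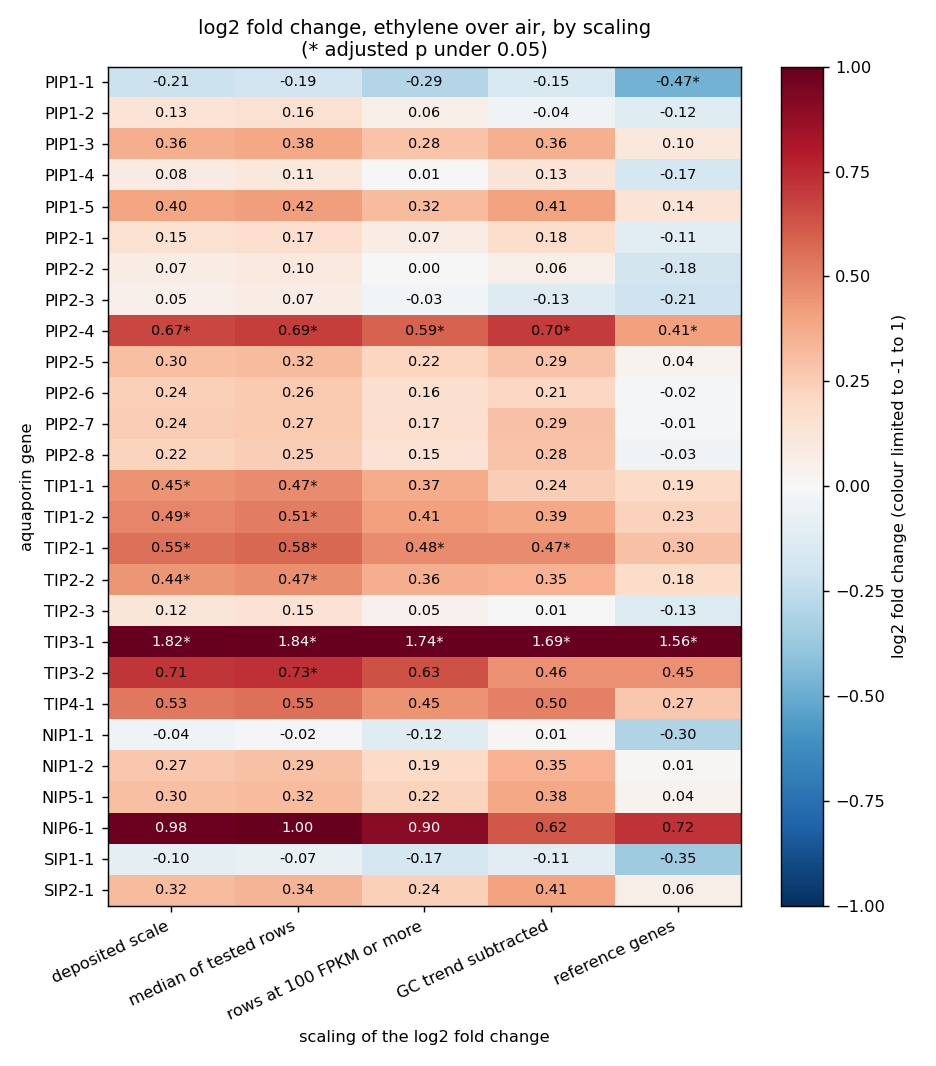
Log2 fold change, ethylene over air, of the 27 tested aquaporin genes with at least 5 FPKM in 1 group (rows), on the deposited scale and under 4 other scalings (columns), with an asterisk where the adjusted p was below 0.05. PIP2-4 and TIP3-1 carry an asterisk in every column, TIP2-1 in all but the reference-gene column, and PIP1-1 is called only when scaled to the reference genes. For PIP2-4 and TIP3-1 the rescaled tests used the smaller of the implied standard error and the median of rows of like level.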

How the data were processed

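Whole *daz3 tree1* seedlings were sequenced after air or ethylene, with 2 libraries per group. The submitters' processing notes name Cuffdiff 2.0.1, TopHat2 2.0.9 and the TAIR10 build, with strand use and other settings not given in the sources used here. What was deposited gives 1 value per group, taken as FPKM because Cuffdiff is named, and an unadjusted p-value by the authors. Depth per library is unknown. The authors' log2 column was not used because some cells held error text, and log2 fold changes were recomputed from the FPKM. Rows without a gene name (243 rows, 86.0% of the air sum and 88.9% of the ethylene sum) stayed out. Rows with a p of 1 were not tested. The 18696 others were adjusted by Benjamini-Hochberg at 0.05.

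A standard error was implied from each p under a normal approximation, and gives the 95% intervals. At the smallest p it is an upper limit, so rescaled tests used the smaller of it and the median of rows of like level. Folds are given at 1 FPKM or more. No list was tested. The members and lists were chosen with earlier results of these data known. All called members, all members at 5 FPKM or more and, from other lists, called genes and up to 4 abundant ones were named. Of the reference genes, only the called one was named. Markers for roots, shoots and seeds were named as examples. AHA8, CPK7 and RMA1 lay in merged rows and were left out. Alternatives were other thresholds, filters, pseudocounts and scalings, the GC trend being a polynomial of degree 3 fitted over rows at 5 FPKM or more. The calculation was run on simulated data drawn with these implied standard errors. Such data cannot show whether those errors hold in the real libraries. Coordinates, transcripts and sequences came from RefSeq for TAIR10.1, where all 35 loci were found. Coding identity came from global alignment of the longest coding sequences. Calculations ran in Python 3.11.15 with Biopython 1.88, matplotlib 3.10.9, scipy 1.17.1, pandas 2.3.3 and numpy 2.4.6.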

Additional observations from a re-analysis of the deposited data

How the results depend on the processing

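The count of 6 aquaporin genes called higher became 3 at an adjusted p threshold of 0.01, 2 when scaled to the reference genes, 3 with the GC trend subtracted and 3 when centred on tested rows at 100 FPKM or more, a scaling chosen after seeing the data. The genes lost were TIP1-1, TIP1-2 and TIP2-2, and on the reference scale also TIP2-1. The count called lower went from 0 to 1 on the reference scale, and the median log2 fold change of tested members from 0.28 to 0.025. Over all rows, 129 were then called higher and 2801 lower, against 405 and 781. A threshold of 0.10, the filters at 1 and 5 FPKM, single-locus rows and centring on the median of tested rows gave 6 to 9 higher and 0 lower. With untested rows included in the adjustment, 5 were higher. Why the reference genes were shifted was not tested. No paired analysis was possible because the columns carry no replicate, and leaving out a replicate could not be run for the same reason.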
